A study of Mus musculus with 16 samples.

Results

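Reactive astrocyte genes were followed in single cells of the mouse cortex: Gfap, Vim, Serpina3n, Lcn2, Osmr, Cd44, S100a6, Steap4 and Timp1. The 9 genes were listed by name as transcripts known to rise in reactive astrocytes, a rule that uses no measured value, though the list was drawn up with earlier results of these mice known. All 9 had a row among the 30389 genes of the count tables. Their counts came from Drop-seq libraries of dissociated cortex, 1 library per mouse, from THY-Tau22 mice aged to 17 months and wild-type (WT) littermates. THY-Tau22 mice express human 4-repeat tau carrying G272V and P301S from the neuronal Thy1.2 promoter, so the transgene is not driven in astrocytes. The line was kept by mating heterozygous males to C57Bl6/J females, and WT mice carried no transgene and no treatment. The labels gave 4 male and 3 female WT mice and 4 male and 5 female THY-Tau22 mice, called transgenic below, and replicate numbers only name mice in the order of their records.

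Astrocytes answer injury, inflammation and protein aggregates in the brain with a change of state called reactive gliosis. Their intermediate filaments thicken, through more glial fibrillary acidic protein (Gfap) and vimentin (Vim), and a set of secreted and membrane proteins is induced. Part of this set lies downstream of the interleukin-6 family of cytokines, whose receptors, such as the oncostatin M receptor Osmr, signal through the transcription factor Stat3. Several of the genes are also used outside astrocytes: vimentin is the filament protein of endothelial, mural and connective tissue cells, Timp1 and Cd44 are made by fibroblasts and immune cells, and Serpina3n by oligodendrocytes.

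On the GRCm38 build (GENCODE M21 annotation), Gfap spans chromosome 11, 102887336 to 102900912, on the minus strand, and the noncoding gene Gm26668 overlaps it on the other strand. Vim spans chromosome 2, 13573927 to 13582826, and S100a6 chromosome 3, 90612882 to 90624181, both on the plus strand with no overlapping gene. Timp1, on the X chromosome at 20870166 to 20874735, overlaps Syn1, and Cd44, on chromosome 2 at 102811141 to 102901665, overlaps Gm23731. Whether the counting used strand was not given in the sources used here, so reads of these 3 overlapping pairs may not be told apart. All 9 genes had a RefSeq promoter (GRCm38.p6, from 250 bases before the start to 50 after it). The letters TTCNNNGAA, the core bound by Stat factors, occurred in 2 of the 9, Gfap and Steap4, and in 8.30% of 32851 promoters of the same length. The letters TGANTCA, a looser pattern than the AP-1 site TGA(C/G)TCA, occurred in 1 of the 9, Osmr, and in 7.81% of all promoters. In Osmr they read TGATTCA, which is not the AP-1 site itself. Each motif reads the same on both strands, and no promoter of the 9 held both. The promoters of Gfap (chr11:102897151-102897450, minus strand) and Steap4 (chr5:7960222-7960521, plus strand) are printed because they hold the Stat letters, in capitals, starting 2 bases and 116 bases before the start. That of S100a6 (chr3:90612644-90612943, plus strand) is printed because the male groups did not overlap for this gene in several comparisons below, and it held neither motif.
Gfap: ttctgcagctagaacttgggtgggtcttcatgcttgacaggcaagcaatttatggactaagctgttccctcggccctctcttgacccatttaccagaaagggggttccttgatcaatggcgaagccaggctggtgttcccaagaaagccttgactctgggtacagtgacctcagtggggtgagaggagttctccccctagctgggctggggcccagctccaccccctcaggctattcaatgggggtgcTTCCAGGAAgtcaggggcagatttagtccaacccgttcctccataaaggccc
Steap4: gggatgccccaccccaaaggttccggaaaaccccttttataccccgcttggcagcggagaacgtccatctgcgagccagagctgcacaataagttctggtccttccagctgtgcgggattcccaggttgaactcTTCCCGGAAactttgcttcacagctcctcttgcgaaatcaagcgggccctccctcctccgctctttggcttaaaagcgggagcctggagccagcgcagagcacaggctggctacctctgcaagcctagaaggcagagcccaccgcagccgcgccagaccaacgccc
S100a6: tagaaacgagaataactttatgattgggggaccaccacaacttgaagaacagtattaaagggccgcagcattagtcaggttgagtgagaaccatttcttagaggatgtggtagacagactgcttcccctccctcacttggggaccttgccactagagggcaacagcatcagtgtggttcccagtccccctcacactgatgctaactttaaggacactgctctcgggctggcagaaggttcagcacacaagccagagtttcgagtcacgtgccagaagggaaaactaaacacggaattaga

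The 16 tables held 3000 barcodes each and 1041675 to 2237505 UMIs (unique molecular identifiers, each standing for 1 captured transcript). Barcodes with 200 to 7000 detected genes were kept as cells, 28530 in all, with a median of 429 to 736.5 UMIs per cell in a library. The tables of transgenic male replicate 4 and WT male replicate 3 had 2952 of 3000 barcodes in common, against at most 12 for any other pair, and held 1 library under both genotypes. Neither was used below, which left 24578 cells from 14 libraries, 3 per group and 5 for transgenic females. The titles of transgenic female replicate 1 and WT male replicate 1 repeat 1 animal number. The titles also carry a label not explained in the sources used here, MB22 for WT female replicate 3 and transgenic female replicate 5 and MB21 for the other libraries. In transgenic male replicate 3, 28.7% of cells fell in clusters that could not be named, against 1.72% to 6.16% in the other libraries. The median share of mitochondrial mRNA per cell was 0.889% to 1.33% in transgenic males and 0.351% to 0.571% in WT males. It was 0.606% to 0.898% in transgenic females and 0.394% to 1.23% in WT females. The part of this measure in the male differences below was not tested.

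Cells were clustered without the 9 genes and named from markers. The 4749 astrocyte-like cells carried 41106 CPM (a gene's UMIs scaled to a common total of all UMIs in the cells concerned) of the 16 astrocyte markers together, against 1151 to 8720 CPM in the other classes, and none of the 16 was at 0. The other classes were microglia-like (7041 cells), oligodendrocyte-like (4671), endothelial-like (3558), neuron-like (1201), OPC-like (oligodendrocyte precursor, 1111), mural-like (834), macrophage-like (164), fibroblast-like (148) and ependymal-like (125), and 976 cells stayed unnamed. Mural-like cells held more summed endothelial than mural markers (14802 and 12617 CPM), and ependymal-like cells more choroid plexus than ependymal markers (31910 and 6858 CPM), so both classes were mixed. Part of the microglia-like cells came from a cluster led by the inflammatory genes Clec7a, Il1b and Tnf.

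The 9 genes were sparse, and most of their transcripts lay outside astrocyte-like cells. Over the 14 libraries, 3545 UMIs were counted for Vim, 677 for S100a6, 217 for Osmr, 191 for Gfap, 96 for Serpina3n, 38 for Cd44, 19 for Timp1, 9 for Steap4 and 3 for Lcn2. Gfap was the only one of the 9 with over 30% of its UMIs in astrocyte-like cells, which contributed 17.8% of all UMIs. The shares were 78.5% for Gfap, 28.8% for S100a6, 15.8% for Cd44 and for Timp1, 11.1% for Osmr, 9.38% for Serpina3n and 4.29% for Vim, and 0 UMIs for Steap4 and Lcn2. A class against the other classes is a description of clusters and was not tested.

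**Figure D1:**
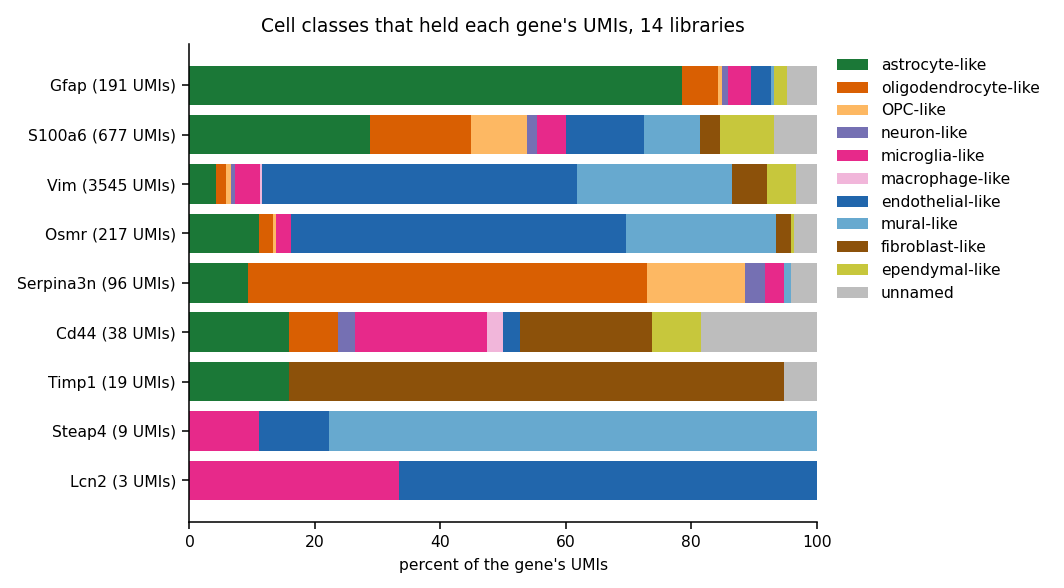
Percent of each gene's UMIs (horizontal axis) that came from each cell class, summed over 14 libraries, with the gene's UMI total in its label. Gfap is mostly astrocyte-like (78.5%), Vim and Osmr mostly endothelial-like and mural-like, Serpina3n mostly oligodendrocyte-like (63.5%) and Timp1 mostly fibroblast-like (78.9%, but 42.1% with classes set from marker UMIs). Of the 61 oligodendrocyte-like Serpina3n UMIs, 39 came from transgenic male replicate 1.

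Gfap, the filament protein by which reactive astrocytes are usually stained, had its highest level in astrocyte-like cells, at 54.5 ± 42.3 CPM (SD, n = 14 libraries). The libraries ranged from 12.8 to 146 CPM. The next class was ependymal-like, at 13.7 CPM over 4 libraries, and the 2 ranges overlapped. Oligodendrocyte-like cells followed at 3.44 CPM from 11 UMIs, and microglia-like cells held 7 UMIs. At least 1 Gfap UMI was found in 103 astrocyte-like cells (2.17%, exact 95% interval 1.77% to 2.62%, which covers counting error only). Of these cells 83 held a single Gfap UMI, and the highest count was 14, in 1 cell of transgenic female replicate 1. With every cell thinned to 300 UMIs, 1.07% of astrocyte-like cells (median 556 UMIs before thinning) had a Gfap UMI. The same thinned share was 0.0299% in microglia-like cells (median 506 UMIs) and 0% in neuron-like cells (median 708 UMIs), classes that should lack the gene. Barcodes with fewer than 200 genes, which were not kept, held Gfap at 13.7 CPM, against 10.8 CPM over the kept cells. The 3 genes whose levels over the 10 named classes were most like Gfap were Ppp1r3g, Plcd4 and Aass (r = 0.974, 0.964 and 0.952, across classes that share libraries).

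Vim, the second filament gene, was a vascular and connective tissue transcript in these libraries. Ependymal-like cells had 1036 ± 616 CPM (4 libraries), mural-like cells 788 ± 161 (14 libraries), fibroblast-like cells 711 ± 510 (8 libraries) and endothelial-like cells 705 ± 136 (14 libraries). These 4 classes did not differ from each other beyond their spread. Astrocyte-like cells held 51.8 ± 16.4 CPM, and every library's endothelial-like value was above every astrocyte-like value. A Vim UMI was found in 31.6% of endothelial-like, 36.8% of mural-like and 2.97% of astrocyte-like cells, and in 1.28% of microglia-like cells. Thinned to 300 UMIs, the shares were 17.7%, 15.4%, 1.29% and 0.688%. The genes most like Vim over the 10 classes were S100a11, Slc16a9 and Phactr2 (r = 0.960, 0.959 and 0.957).

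S100a6, a small calcium-binding protein, was spread over most classes. Its UMIs were 195 in astrocyte-like, 109 in oligodendrocyte-like, 84 in endothelial-like, 61 in mural-like, 60 in OPC-like and 58 in ependymal-like cells. By level, ependymal-like cells came first at 327 ± 260 CPM (4 libraries). Fibroblast-like cells (80.9 CPM), OPC-like cells (73.8 ± 33.8), astrocyte-like cells (63.1 ± 28.4) and mural-like cells (62.3 ± 35.6) followed and did not differ beyond their spread. Endothelial-like cells had 35.9 ± 29.4 CPM, oligodendrocyte-like cells 31.5 ± 16.9 and microglia-like cells 6.64. Cnn3, Morn2 and Urod had the closest pattern (r = 0.976, 0.967 and 0.966).

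Osmr, which pairs with gp130 to form the oncostatin M receptor, was vascular as well: 53.5% of its UMIs were endothelial-like and 24.0% mural-like. Its level was 45.7 ± 28.2 CPM in mural-like and 45.5 ± 21.8 CPM in endothelial-like cells (SD, n = 14), which did not differ beyond their spread, and 7.95 ± 8.14 CPM in astrocyte-like cells. The genes nearest in pattern were Ehd2, Jag1 and Bcam (r = 0.949, 0.940 and 0.937).

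The other 5 genes were rarer. Serpina3n, a secreted inhibitor of serine proteases, had 61 of its 96 UMIs in oligodendrocyte-like cells and 15 in OPC-like cells, against 9 in astrocyte-like cells, and 0 of 3558 endothelial-like cells had one (which allows a share of up to 0.0843%). Its near-identical relatives in the Serpina3 cluster had at most 2 UMIs each, and reads split among them would be uncertain. Dusp15, Bfsp2 and 2810468N07Rik were nearest to it in pattern (r = 0.989, 0.971 and 0.963). Timp1, an inhibitor of matrix metalloproteinases, had 15 of 19 UMIs in fibroblast-like cells, where it reached 59.7 ± 32.5 CPM (8 libraries), and 3 in astrocyte-like cells. With classes set from marker UMIs, 8 of the 19 (42.1%) were fibroblast-like. Cd44, the receptor for hyaluronan, was thinly spread, with 8 UMIs each in fibroblast-like and microglia-like cells and 6 in astrocyte-like cells. Steap4, a metalloreductase, had 7 of 9 UMIs in mural-like cells, or 2 of 9 (22.2%) with classes set from marker UMIs, and Kcnj8 and Vtn, both pericyte genes, were closest in pattern (r = 0.981 and 0.967). For Timp1 these were Slc47a1, Prg4 and Uso1 (r = 0.973, 0.970 and 0.964), and for Cd44 Ccdc122, Tatdn1 and Gm14897 (r = 0.851, 0.843 and 0.836), each on few UMIs. Lcn2, the iron-carrier-binding lipocalin that reactive astrocytes secrete in inflammation, had 2 UMIs in endothelial-like cells and 1 in microglia-like cells. Its 0 of 4749 astrocyte-like cells allows a share of cells with a UMI of up to 0.0632%, and the genes nearest to its 3 UMIs (Crcp, Hbb-bt and Sptlc2) are named only.

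**Figure D2:**
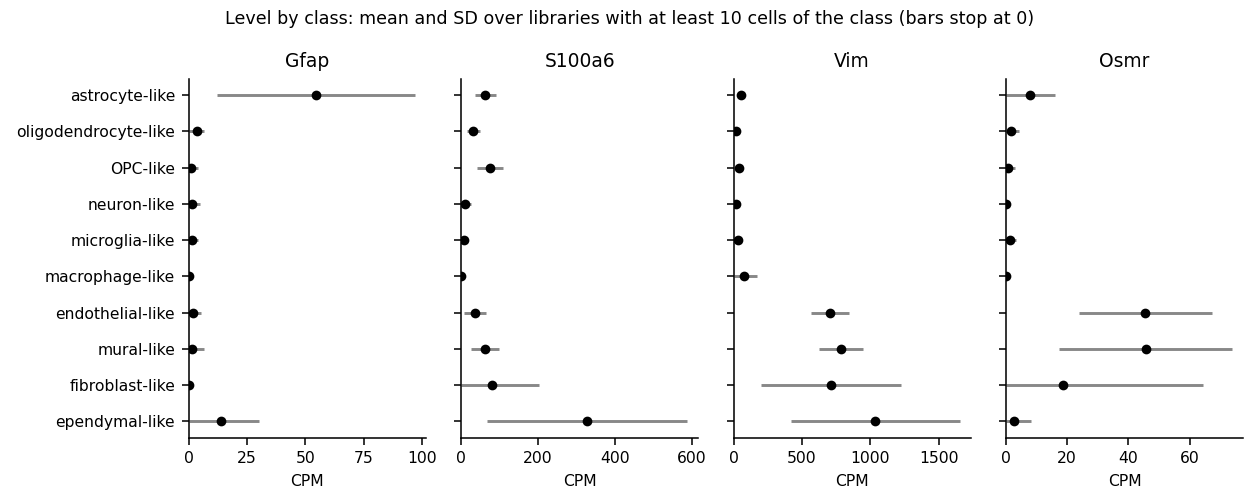
Mean level of Gfap, S100a6, Vim and Osmr in CPM (horizontal axes, each with its own scale) in the 10 named classes; points are means and bars the SD over libraries with at least 10 cells of the class. Gfap stands highest in astrocyte-like cells (54.5 CPM), while Vim is above 700 CPM in the vascular, fibroblast-like and ependymal-like classes and 51.8 CPM in astrocyte-like cells.

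The genotype comparison asked whether these genes differed between THY-Tau22 and WT mice, in males and in females. For Gfap in astrocyte-like cells, the 3 WT males had 19.5, 39.8 and 12.8 CPM (7, 8 and 2 UMIs) and the 3 transgenic males 35.5, 27.7 and 74.0 CPM (5, 5 and 17 UMIs). The male groups overlapped, and transgenic male replicate 3 was the highest. The 3 WT females had 114, 64.2 and 33.1 CPM (13, 13 and 11 UMIs). The 5 transgenic females had 112, 18.5, 48.9, 146 and 16.4 CPM (27, 3, 14, 18 and 7 UMIs). Both female groups spanned low and high libraries, and of the 27 UMIs in replicate 1, 14 came from 1 cell. Mean levels were 45.7 ± 24.8 and 24.0 ± 14.0 CPM in the 2 male groups, transgenic first (SD, n = 3 each; exact permutation, two-sided, p = 0.30) and 68.4 ± 58.2 and 70.5 ± 40.9 CPM in transgenic (n = 5) and WT (n = 3) females (exact permutation p = 0.982). The smallest p that these group sizes allow is 0.10 in males and 0.0179 in females. The log2 fold change was 0.72 ± 0.67 in males (SE, edgeR adjusted p = 0.597) and 0.02 ± 0.51 in females (edgeR adjusted p = 0.999).

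The share of astrocyte-like cells with a Gfap UMI was 1.30% ± 0.638 in WT and 3.32% ± 3.02 in transgenic males (SD over 3 mice, exact permutation p = 0.40). Transgenic male replicate 3, with 16 of 235 cells (6.81%), carried much of this mean. In females the share was 2.71% ± 0.928 in WT and 2.31% ± 1.70 in THY-Tau22 mice (exact permutation p = 0.768). With cells thinned to 300 UMIs, the 3 transgenic males (1.79% ± 0.695) lay above the 3 WT males (0.541% ± 0.276), at the smallest exact permutation p, 0.10. This rests on 3 of 234, 5 of 330 and 6 of 232 cells, against 2 of 519, 3 of 349 and 1 of 265. How many of all genes were so separated was not counted for shares of cells. By CPM it was 16.2% of genes with at least 30 UMIs in this class. The thinned female shares were 1.13% ± 1.14 and 1.48% ± 0.487 (exact permutation p = 0.696), and the thinned sex by genotype difference was 1.60 percentage points (exact permutation p = 0.0938).

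Vim in astrocyte-like cells was 39.1, 44.7 and 38.3 CPM in WT males and 63.9, 49.8 and 52.2 CPM in transgenic males. The 3 transgenic males lay above the 3 WT males, a separation also seen for 16.2% of genes with at least 30 UMIs in this class. The 3 WT females had 96.6, 49.4 and 60.2 CPM, and the 5 transgenic females 45.6, 43.1, 48.9, 65.1 and 28.1 CPM. Here the groups overlapped, with 4 of the 5 transgenic females below all 3 WT females. The male difference in means was 14.6 CPM (55.3 ± 7.51 against 40.7 ± 3.51, exact permutation p = 0.10) and the female difference -22.6 CPM (46.2 ± 13.2 against 68.7 ± 24.7, exact permutation p = 0.143). The male difference exceeded the female one by 37.2 CPM (exact permutation p = 0.0107 over 1120 assignments). edgeR did not call it: log2 fold changes were 0.16 ± 0.43 in males and -0.56 ± 0.37 in females. Without WT female replicate 1, the highest library, the difference between the sexes was no longer past 0.05 (exact permutation p = 0.0714). Markers of endothelial cells, the main Vim class, summed to 166 to 246 CPM in the astrocyte-like cells of WT males, 172 to 570 in transgenic males, 214 to 736 in WT females and 171 to 315 in transgenic females, and none of the 14 was at 0. Their part in the Vim values was not tested.

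The share of astrocyte-like cells with a Vim UMI was 2.83% ± 0.321 in transgenic females and 3.68% ± 0.284 in WT females, with no overlap (exact permutation p = 0.0357). It rests on 11, 7, 13, 8 and 12 cells with a Vim UMI in transgenic and 9, 10 and 16 in WT females. How many of all genes were so separated was not counted for this measure. Among MB21 libraries the female difference had an exact permutation p of 0.0667, the smallest that 4 against 2 mice allow. In males the share of cells with a Vim UMI was 3.46% ± 1.16 in THY-Tau22 and 2.44% ± 0.171 in WT mice (exact permutation p = 0.30). The male minus female difference was 1.88 percentage points (exact permutation p = 0.00804). With cells thinned to 300 UMIs the female difference was no longer past 0.05 (exact permutation p = 0.339), while the difference between the sexes was 1.11 points (exact permutation p = 0.0357). Among MB21 libraries that thinned difference between the sexes was 0.871 points and missed 0.05 (exact permutation p = 0.11). In endothelial-like cells, where most Vim was counted, WT males had 657, 607 and 500.9 CPM and transgenic males 588.4, 813 and 1063 CPM, which overlapped (log2 fold change 0.30 ± 0.25, edgeR adjusted p = 0.564). WT females had 631, 801 and 612 CPM and transgenic females 680, 711, 802, 731 and 671 CPM. In microglia-like cells Vim was 15.1, 30.6 and 13.8 CPM in WT males and 65.6, 30.0 and 66.0 CPM in transgenic males, which overlapped (log2 fold change 1.33 ± 0.55, edgeR adjusted p = 0.194). There WT females had 99.5, 23.9 and 13.0 CPM and transgenic females 46.9, 17.6, 22.2, 21.5 and 31.5 CPM, with a log2 fold change of -0.31 ± 0.50 (edgeR adjusted p = 1.00).

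For S100a6 in all cells together, WT males had 29.2, 27.8 and 18.2 CPM (61, 31 and 16 UMIs), and transgenic males 46.8, 43.7 and 65.8 CPM (49, 54 and 96 UMIs). Every transgenic male was above every WT male, a separation also seen for 19.1% of genes with at least 30 UMIs in all cells. The WT females had 38.4, 57.7 and 35.3 CPM and the transgenic females 40.5, 31.1, 32.1, 48.9 and 28.7 CPM, and the 2 groups overlapped. The log2 fold change was 0.84 ± 0.27 in males (SE, edgeR unadjusted p = 0.00464, adjusted p = 0.234) and -0.25 ± 0.24 in females (edgeR adjusted p = 1.00). The sex by genotype difference was 1.09 ± 0.36 (edgeR unadjusted p = 0.00564, adjusted p = 0.291), or 34.5 CPM by permutation (exact p = 0.0170). It missed 0.05 without WT female replicate 2 (exact permutation p = 0.0524). In transgenic male replicate 3, 22 of the 96 UMIs lay in unnamed cells. Over named classes alone, transgenic males had 45.8, 43.8 and 60.3 CPM and WT males 29.0, 27.4 and 18.7 CPM, still with no overlap. A sum over all cells cannot tell a larger share of S100a6-bearing cells from more S100a6 per cell.

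By class, S100a6 in astrocyte-like cells was 47.5, 39.8 and 19.1 CPM in WT males and 63.9, 49.8 and 109 CPM in transgenic males. Those groups did not overlap (16.2% of genes with at least 30 UMIs were so separated there), and the log2 fold change was 0.73 ± 0.44 (edgeR adjusted p = 0.379). WT females had 61.5, 119 and 45.1 CPM and transgenic females 74.7, 37.0, 66.4, 97.6 and 53.8 CPM, a log2 fold change of -0.15 ± 0.36. In microglia-like cells transgenic males (10.9, 15.0 and 24.0 CPM, from 3, 5 and 8 UMIs) also lay above WT males (4.32, 3.83 and 0 CPM, from 2, 1 and 0 UMIs), and in mural-like cells 131, 80.1 and 45.5 CPM stood above 22.1, 31.7 and 37.6 CPM. Of genes with at least 30 UMIs, 13.4% in microglia-like and 10.5% in mural-like cells were separated in that direction. The female means, WT first, were 4.38 and 4.34 CPM in microglia-like and 59.2 and 69.4 CPM in mural-like cells, and those groups overlapped. The male groups overlapped in oligodendrocyte-like cells (means of 37.7 in WT and 52.0 CPM in transgenic males, exact permutation p = 0.50) and in OPC-like cells (58.8 and 88.6 CPM, exact permutation p = 0.30). They also overlapped in endothelial-like cells (means of 14.2 in WT and 38.4 CPM in transgenic males, exact permutation p = 0.50). There 10 UMIs came from 1 cell of transgenic male replicate 3. In the endothelial-like class WT females had 78.9, 98.5 and 21.98 CPM and transgenic females 19.8, 18.0, 47.5, 39.5 and 21.4 CPM, and the male minus female difference was 61.5 CPM (exact permutation p = 0.0446; log2 2.03 ± 0.94, edgeR adjusted p = 0.334). It was 40.9 to 64.0 CPM and missed 0.05 when any of 9 libraries was left out: WT male replicates 2 and 4, transgenic male replicate 3, WT female replicates 1 and 2, and transgenic female replicates 1, 2, 4 and 5.

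**Figure D3:**
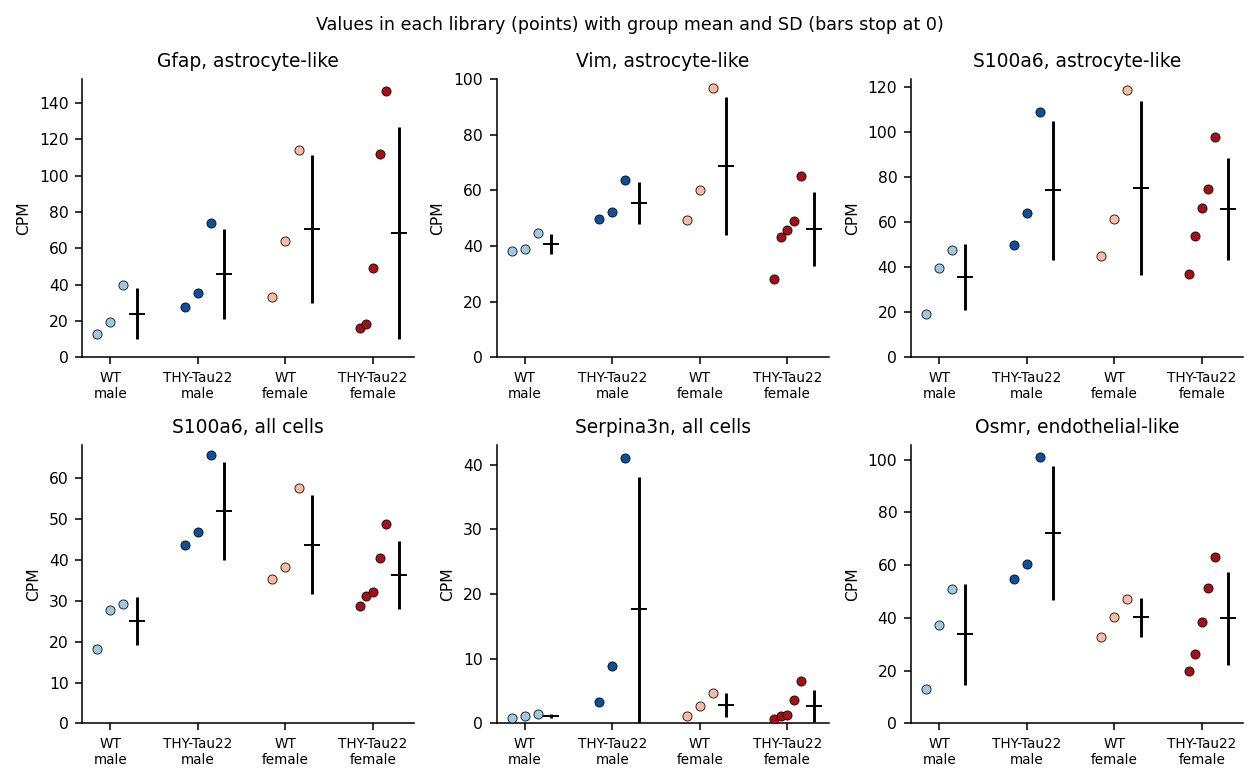
Level in CPM (vertical axes) in each of 14 libraries (points) for 6 pairs of a gene and a cell class, by sex and genotype, with the group mean and SD beside the points. Transgenic males lie above WT males for all panels but Gfap, and the female groups overlap in all 6. The panels are a choice from 22 pairs, of which 9 had the male groups so separated. Among all genes with at least 30 UMIs this held for 19.1% in all cells, 16.2% in astrocyte-like and 14.7% in endothelial-like cells.

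Osmr in endothelial-like cells was 50.8, 37.1 and 13.2 CPM in WT males (17, 6 and 2 UMIs) and 54.7, 60.4 and 101 CPM in transgenic males (8, 11 and 14 UMIs). The 3 transgenic males were higher, by 38.4 CPM on average (exact permutation p = 0.10, the smallest possible with n = 3 each). In this class 14.7% of genes with at least 30 UMIs were separated in that direction. WT females had 47.3, 32.8 and 40.3 CPM and transgenic females 51.4, 63.0, 26.4, 19.7 and 38.5 CPM, with means of 40.2 and 39.8 CPM (exact permutation p = 1.00). This pair had too few counts for the edgeR filter. In all cells the Osmr log2 fold change was 0.52 ± 0.45 in males (edgeR adjusted p = 0.591).

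The Serpina3n counts came largely from 1 mouse. In all cells WT males had 1.44, 0.896 and 1.14 CPM (3, 1 and 1 UMIs), and transgenic males 41.0, 3.24 and 8.91 CPM (43, 4 and 13 UMIs). WT females had 2.64, 1.09 and 4.71 CPM and transgenic females 6.53, 1.15, 0.699, 1.32 and 3.59 CPM. All 3 transgenic males exceeded the WT males, as was so for 19.1% of genes with at least 30 UMIs, but transgenic male replicate 1 alone held 43 of all 96 UMIs. In its oligodendrocyte-like cells Serpina3n was at 131 CPM (exact Poisson 95% interval 93.4 to 180, counting error only), with a UMI in 24 of 474 cells (5.06%). The oligodendrocyte-like cells of the other 13 libraries had 7.21 CPM (4.52 to 10.9), with a UMI in 16 of 4197 cells (0.381%). Its 9 UMIs in astrocyte-like cells all came from transgenic libraries: 1, 3 and 2 in the males, and 1 and 2 in female replicates 4 and 5. The 6 WT libraries and transgenic female replicates 1 to 3 had 0. No library held more than 3 of these UMIs, and the genotype difference in astrocyte-like cells was not tested. In males of that class, 16.2% of genes with at least 30 UMIs were higher in every transgenic library, a count that Serpina3n did not reach there.

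In all cells Cd44 was 2.39, 0 and 1.14 CPM in WT males and 2.86, 3.24 and 4.11 CPM in transgenic males, and 1.32, 1.09 and 1.77 CPM in WT females against 3.27, 1.15, 3.49, 1.32 and 1.03 CPM in transgenic females. Averaged over both sexes the difference was 1.44 CPM (exact permutation p = 0.0366), on 38 UMIs in all, and without the unnamed cells 1.32 CPM (exact permutation p = 0.0723). It also missed 0.05, at 1.15 to 1.58 CPM, without any one of WT male replicates 2 and 4, WT female replicates 1 and 2, transgenic male replicates 1, 2 and 3, and transgenic female replicates 1 and 3. Timp1 had 1, 5 and 5 UMIs in transgenic males and 0 in each WT male, 1, 0 and 0 in WT females, and 1, 0, 3, 1 and 2 in transgenic females. The 3 Lcn2 UMIs came from transgenic male replicate 3 (2 UMIs) and female replicate 4 (1 UMI), and 4 of the 9 Steap4 UMIs from transgenic male replicates 2 and 3. The male groups did not overlap for Timp1, on 11 UMIs. In all cells 19.1% of genes with at least 30 UMIs were separated in that direction, a count that Timp1 did not reach. Fibroblast-like cells, the main Timp1 class, numbered 23, 1 and 1 in WT males and 10, 16 and 17 in transgenic males. They numbered 16, 0 and 0 in WT females and 3, 7, 30, 13 and 11 in transgenic females. The part of these cell numbers in the Timp1 counts was not tested. Timp1, Steap4 and Lcn2 had too few UMIs to be tested.

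Over the whole set, few pairs could be tested and none was called. Of 63 pairs of a gene and a level (all cells and 6 classes), 11 passed the edgeR filter on low counts, for Gfap, Vim, S100a6 and Osmr. A call needed an adjusted p under 0.05 over all genes of the level and a log2 fold change beyond 0.5 in size. edgeR called 0 of the 11 in any of 4 contrasts (either sex, their average and the sex by genotype interaction). The background of called genes was 0% of 11643 in all cells, 0% of 4138 in astrocyte-like cells and 0% of 3485 for the endothelial-like class, in all 4 contrasts. In microglia-like cells it was 1.22% in males, 0.0185% over both sexes and 0% otherwise, and in oligodendrocyte-like cells 0.298% for the interaction, 0.0688% in males, 0.0229% in females and 0% averaged over sexes. An unadjusted p under 0.05 was reached in males by S100a6 in all cells, where 15.4% of genes reached it, and by Vim in microglia-like cells, where 18.4% did. For the interaction it was reached by S100a6 in all cells (background 12.7%) and in endothelial-like cells (14.2%) and by Vim in microglia-like cells (14.1%). No pair reached it in females or averaged over sexes, where 1.74% and 4.22% of genes in all cells did. DESeq2, run as an alternative, called 0 of the pairs to which it gave an adjusted p. Male log2 fold changes were above 0 in 11 of 11 pairs, 0.02 to 1.33, and female ones in 5 of 11, -1.05 to 0.58. The pairs share mice and genes and are not independent. In all cells of males the median over the 4 tested genes was 0.63, against 0.01 over all genes tested, of which 51.2% were above 0, and in astrocyte-like cells it was 0.72 over 3 genes, against 0.01. In all cells of females it was -0.06 over the 4 genes, against -0.01.

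**Figure D4:**
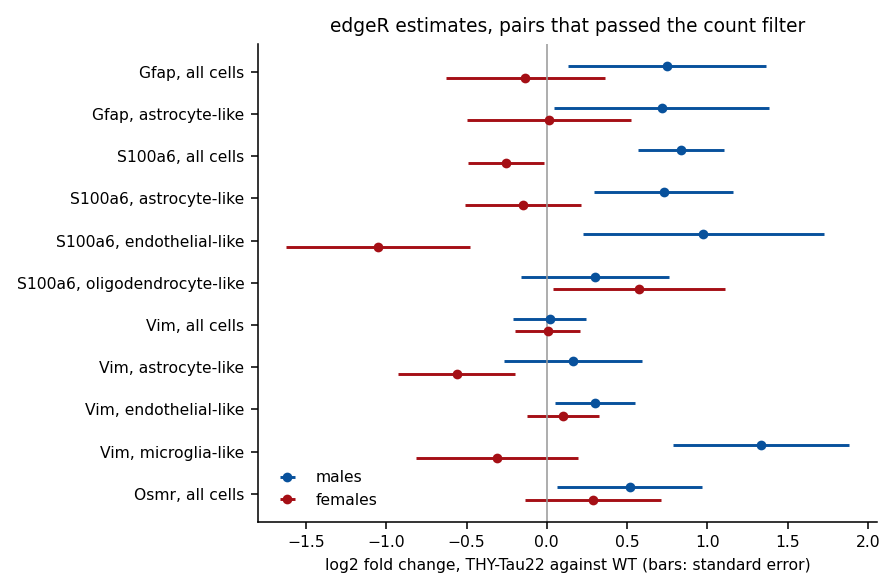
edgeR log2 fold change of THY-Tau22 against WT mice (horizontal axis; points, with bars of 1 SE) for the 11 pairs of a gene and a level that passed the count filter, in males (blue) and females (red). The male estimates lie between 0.02 and 1.33 and the female ones between -1.05 and 0.58, and no pair was called.

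Separation of the male groups was frequent among all genes too. Among 22 pairs with at least 30 UMIs, every transgenic male was above every WT male in 9, and the reverse, seen for 5.98% of genes in all cells, occurred in 0. In all cells these were 3 of 6 (Serpina3n, Cd44 and S100a6), where 19.1% of all genes with at least 30 UMIs did the same. They were 2 of 3 in astrocyte-like cells (Vim and S100a6, background 16.2%) and 1 of 2 in microglia-like cells (S100a6, background 13.4%). Oligodendrocyte-like cells gave 1 of 3 (Vim, background 16.3%), endothelial-like cells 1 of 3 (Osmr, background 14.7%), mural-like cells 1 of 3 (S100a6, background 10.5%), and OPC-like cells 0 of 2 (background 9.87%). In females 0 of 22 pairs were separated, where 0.788% of genes were higher and 0.781% lower in all cells. Within males the smallest possible exact permutation p was 0.10, so the 22 male tests could not pass 0.05. No share of all genes was counted for the exact permutation tests. Of 88 exact permutation tests over the 22 pairs and 4 contrasts, 4 gave an unadjusted p under 0.05: S100a6 in all cells and in endothelial-like cells and Vim in astrocyte-like cells, each for the difference between the sexes, and Cd44 in all cells over both sexes. Among MB21 libraries alone these differences, in the same order, were 36.8, 81.7 and 36.9 CPM between the sexes (exact permutation p = 0.0167, 0.0167 and 0.0267) and 1.67 CPM for Cd44 (exact permutation p = 0.0167).

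Whether the genes were found in the same cells was asked among astrocyte-like cells, split by a Gfap UMI. The 103 cells with one (median 836 UMIs) had Vim at 199 CPM (21 UMIs, exact Poisson 95% interval 123 to 304), and the 4646 cells without (median 552 UMIs) at 42.9 CPM (35.9 to 51.0). S100a6 was at 161 CPM (17 UMIs, 93.7 to 257) with a Gfap UMI and 58.4 CPM (50.1 to 67.6) without. Over the 14 libraries the mean difference was 140 CPM for Vim (higher in 8 libraries, two-sided exact sign-flip permutation p = 0.0309) and 88.8 CPM for S100a6 (higher in 8, exact permutation p = 0.0413). Without cells marked as doublets the S100a6 difference was 53.1 CPM (exact permutation p = 0.195). Both genes missed 0.05 when only cells with at least 500 UMIs were used, at 130 CPM (exact permutation p = 0.0675) and 74.6 CPM (exact permutation p = 0.0940). Leaving out WT male replicate 2, WT female replicate 1 or transgenic female replicate 1, 2 or 3 did the same for both genes, as did transgenic female replicate 4 for Vim and WT male replicate 1 for S100a6, with differences of 97.4 to 140 CPM for Vim and 68.5 to 84.1 CPM for S100a6. Aqp4, the water channel of astrocyte endfeet, was also higher, at 1995 against 923 CPM (13 of 14 libraries, exact permutation p = 0.000244), whereas Slc1a2, the glutamate transporter, was at 11377 and 10803 CPM (exact permutation p = 0.640). The endothelial gene Flt1 was at 85.1 and 63.9 CPM (exact permutation p = 0.560). Cldn5, also endothelial, had 0 UMIs with a Gfap UMI, which allows up to 34.9 CPM, and 13.4 CPM without, so the counts show no difference. Its exact sign-flip permutation p was still 0.000977 (0 libraries higher, 11 lower). With few UMIs in the 103 cells, this test can give a small p without a difference beyond counting error. That also limits its p for Vim and S100a6. Serpina3n had 0 and 9 UMIs in these cells, and Osmr and Cd44 1 UMI each with Gfap. Of the 4749 astrocyte-like cells, 412 held a UMI of at least 1 of the 9 genes, 32 of at least 2 and 10 of at least 3. In endothelial-like cells the first 2 counts were 1215 and 86 of 3558, and in fibroblast-like cells 59 and 17 of 148.

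**Figure D5:**
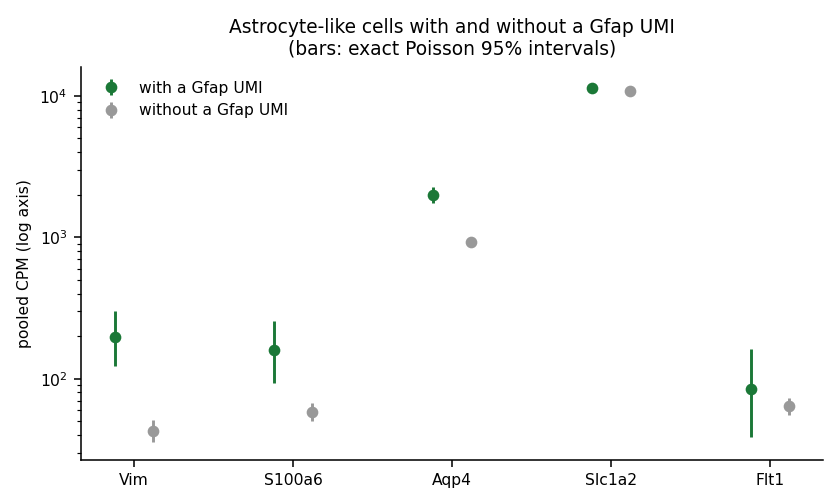
Pooled CPM (vertical log axis) of Vim, S100a6, Aqp4, Slc1a2 and Flt1 in astrocyte-like cells with (green, 103 cells) and without (grey, 4646 cells) a Gfap UMI, with exact Poisson 95% intervals that cover counting error. Vim (199 against 42.9 CPM), S100a6 (161 against 58.4) and Aqp4 (1995 against 923) stand higher with a Gfap UMI.

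Other genes of the reactive state were counted from lists. Of 15 further pan-reactive genes, 14 were in the tables and 11 were tested in all cells of males, where 0 were called, 3 were higher and 1 lower at an unadjusted p under 0.05 (15.4% of all genes reached it). Log2 fold changes were above 0 for 6 of the 11 in males (51.2% of all genes), with a median of 0.49, and for 2 of the 11 in females (47.9% of all genes), with a median of -0.17. In astrocyte-like cells only Id3 and Sox9 could be tested. Id3, a target of BMP signalling, was at 451 ± 161 CPM in transgenic and 120 ± 53.9 in WT males (SD over 3 mice; log2 fold change 1.72 ± 0.40, edgeR adjusted p = 0.140). In females Id3 was at 269 ± 149 CPM (n = 5) and 435 ± 244 CPM (n = 3), with -0.62 ± 0.33 (edgeR adjusted p = 0.999), and the interaction was 2.34 ± 0.52 (edgeR adjusted p = 0.104). Sox9, a transcription factor of astrocytes, was at 544 ± 160 CPM in transgenic males and 602 ± 35.3 in WT males (edgeR adjusted p = 0.456). Of 13 A1-type genes, 12 were in the tables and 9 were tested in all cells of males, 8 of them above 0, with a median of 0.45. In females 3 of the 9 were above 0, with a median of -0.095. In astrocyte-like cells only H2-D1, a class I major histocompatibility gene, was tested, at 74.3 ± 23.9 CPM in transgenic males and 41.2 ± 14.4 in WT males (edgeR adjusted p = 0.537). The 2 calls of any list were H2-D1 and Srgn, a secretory granule proteoglycan, in microglia-like cells of males, where 1.22% of all genes were called. Their log2 fold changes were 1.82 ± 0.32 and 1.29 ± 0.32 (edgeR adjusted p = 0.0105 and 0.0369). With all 16 libraries as labelled neither was called, but that run enters 1 library under both male genotypes and so cannot test these calls. In microglia-like cells of females H2-D1 was at 578.4 ± 176 CPM in transgenic and 708 ± 400.5 CPM in WT mice, and Srgn at 369.9 ± 125 and 391 ± 213 CPM, in overlapping groups. Of 12 A2-type genes 11 were in the tables, and 5 were tested in all cells, 4 above 0 in males and 1 in females, and 0 in astrocyte-like cells. Of 17 genes of the interleukin-6 and Stat3 pathway, 15 were tested in all cells, 9 above 0 in males, with a median of 0.17, and 6 in females, with a median of -0.063. Of the same genes 5 were tested in astrocyte-like cells, 3 above 0 in males, with a median of 0.062, and 0 were called.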

How the data were processed

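Per the labels, the authors dissociated fresh cortex, made Drop-seq libraries with 3′ end enriched cDNA and read 60 bases of each transcript. The deposited values were whole UMI counts per gene and barcode, which the authors made with their Drop-seq pipeline and did not normalize. The submitters' processing notes name mm10, and the aligner version, annotation and strand setting are not given in the sources used here. How the 3000 barcodes of each table were chosen was not stated.

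Cells with 200 to 7000 detected genes were kept, and the study's limit of 5% mitochondrial UMIs was run as an alternative (28439 of 28530 cells pass it). The library found under both genotypes was left out. Cells were clustered in scanpy 1.11.5 with leidenalg 0.10.2 on 2500 variable genes without the 9 genes (19 components, 20 neighbours, resolution 0.5, 17 clusters), and classes were named from markers with at least 3 detected, so names may differ from the study's. Scrublet marked 1473 cells (5.16%) as doublets. They were kept, and left out in an alternative. Marked doublets made up 82.6% of a 224-cell cluster in the astrocyte-like class and 79.9% of a 204-cell cluster in the endothelial-like class. In the oligodendrocyte-like class they made up 77.8% of a 189-cell and 79.0% of a 143-cell cluster. Over these whole classes, in the same order, they were 4.33%, 6.11% and 5.36% of cells. UMIs were summed per library and class (at least 10 cells) and compared by the quasi-likelihood test of edgeR 4.0.16 under R 4.3.3 (TMM, filterByExpr, 1 mean per group, Benjamini-Hochberg over all genes of a level), and single values by two-sided exact permutation of genotype within sex. DESeq2 1.42.0 was an alternative, and an adjusted p it did not give stayed missing. The edgeR script was tested on simulated data. Depth was 755945 to 2089367 kept UMIs per library, so a floor of 3 counts lies at about 1.44 CPM in the deepest.

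Genes named are the 9, at each level tested, the listed genes that were called or up to 4 per list with the smallest p in astrocyte-like cells, and the 3 nearest to each of the 9 by Pearson r of log2(CPM + 1) over 10 classes (genes with at least 100 UMIs). Aqp4, Slc1a2, Cldn5 and Flt1 served as checks. The 9 genes and all lists were chosen with earlier results of these data known. P-values measure the spread between libraries, 1 per mouse. A Benjamini-Hochberg adjustment over the 9 genes alone is not printed, since the list was chosen with results known. One gene that this rule names is not reported here.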

Additional observations from a re-analysis of the deposited data

Results flagged for a closer look

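In oligodendrocyte-like cells of the 5 transgenic females, Serpina3n stood at 22.9 CPM in replicate 1 (7 UMIs in 5 of 400 cells), with the next highest at 2.65 CPM (1 UMI) and 3 libraries at 0. The gap to the next library was larger than Dixon's limit for 5 samples, and 22 such groups were examined. Chance exceeds that limit in about 1 of 20 groups only for normally distributed values. These values are sparse counts with 3 libraries at 0, so that rate does not hold for them.

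For 4 values the genotype difference in males and that in females differed at an unadjusted p under 0.05, by permuting genotype within each sex. In all, 4 of 88 tests of CPM values reached that level, 3 of them among these, and the 22 tests within males could not reach it. Each is the male minus the female difference of transgenic minus WT mice. It was 37.2 CPM for Vim in astrocyte-like cells (exact permutation p = 0.0107), from differences of 14.6 CPM in males and -22.6 CPM in females. The share of astrocyte-like cells with a Vim UMI gave 1.88 percentage points (exact permutation p = 0.00804), and both values rest on the same UMIs. With cells thinned to 300 UMIs the share gave 1.11 points (exact permutation p = 0.0357). Among MB21 libraries the thinned share gave 0.871 points (exact permutation p = 0.11). The Vim CPM value missed 0.05 with marker-based classes (exact permutation p = 0.129), with cells of at least 500 genes (exact permutation p = 0.0839) and without WT female replicate 1 (exact permutation p = 0.0714). S100a6 gave 34.5 CPM in all cells (exact permutation p = 0.0170) and 61.5 CPM in endothelial-like cells (exact permutation p = 0.0446). The latter came from 84 UMIs over 14 libraries, 10 of them in 1 cell of transgenic male replicate 3. The value in all cells missed 0.05 with cells of at least 500 genes (exact permutation p = 0.0875) and without WT female replicate 2 (exact permutation p = 0.0524). The endothelial-like value missed it without any of 9 libraries. None of these genes was called by edgeR for the interaction at any level tested.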

How the results depend on the processing

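Without a filter on low counts, edgeR called 2 pairs in males and 1 in the interaction, each of them Serpina3n, for which transgenic male replicate 1 held 43 of 96 UMIs. The pairs called were 0 in each contrast under the other alternatives run, including each library left out. The log2 fold change of Gfap in astrocyte-like cells of females, 0.02, turned to -0.039 without TMM, -0.084 with cells of at least 500 genes, -0.21 without doublets, -0.23 with the MB label of the titles as a term and -0.016 with classes from marker UMIs, and ran from -0.39 to 0.41 with libraries left out in turn. Its CPM difference ran from -21.6 to 19.8, and the S100a6 log2 fold change in astrocyte-like cells of females from -0.36 to 0.26. With cells of at least 500 genes the difference between the sexes was 43.1 CPM for S100a6 in all cells (exact permutation p = 0.0875) and 122 CPM for Vim in astrocyte-like cells (exact permutation p = 0.0839), and marker-based classes gave 29.1 CPM for the latter (exact permutation p = 0.129). Leaving out libraries gave 27.6 to 38.7 CPM for S100a6 and 23.2 to 46.8 CPM for Vim. For S100a6 in endothelial-like cells it gave 40.9 to 83.7 CPM (exact permutation p = 0.0119 to 0.143), and for Cd44 over both sexes 1.15 to 1.75 CPM (exact permutation p = 0.0257 to 0.0750). In the split by Gfap, the Vim difference was 123 CPM with marker-based classes, 130 CPM with at least 500 UMIs (exact permutation p = 0.0620 and 0.0675) and 97.4 to 156 CPM with libraries left out (exact permutation p = 0.0215 to 0.0618). The S100a6 difference was 53.1 CPM without doublets, 67.5 CPM with marker-based classes and 74.6 CPM with at least 500 UMIs (exact permutation p = 0.195, 0.0938 and 0.0940), and 68.5 to 101 CPM with libraries left out (exact permutation p = 0.0310 to 0.0825). Flt1 turned to -25.9 CPM with marker-based classes, and ran from -0.65 to 32.5 CPM. The A1-type calls went from 2 to 0 with all 16 libraries as labelled, a run that enters 1 library under both male genotypes. The causes were not tested. The value over named classes, the libraries left out of the Gfap split, the term for the MB label and the CPM values and shares of MB21 libraries alone were chosen after seeing the data. No paired analysis was possible because replicate numbers follow accession order and pair no mice. With the MB label as a term, and with MB21 libraries alone, edgeR called 0 pairs in each contrast. At a median of 429 to 736.5 UMIs per cell, 83 of 103 astrocyte-like cells with Gfap held 1 UMI of it, and Lcn2, Steap4 and Timp1 were not tested.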

Other observations

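C4b, a complement component, was examined beside Serpina3n in oligodendrocyte-like cells, along with Il33, H2-D1 and Aqp4, all chosen after the values were seen. The 40 oligodendrocyte-like cells with a Serpina3n UMI held C4b at 648 CPM (27 UMIs, exact Poisson 95% interval 427 to 943), and 17 of them (42.5%) had a C4b UMI. The 4631 cells without one held 62.0 CPM (53.8 to 71.1). Within transgenic male replicate 1, which gave 24 of the 40 cells, the values were 892 CPM with and 102 CPM without a Serpina3n UMI, and the 16 cells of the other libraries held 364 CPM from 7 UMIs. Il33, a cytokine made by oligodendrocytes, was at 2016 and 1105 CPM in the 2 kinds of cells. Within transgenic male replicate 1 it was at 2632 and 1071 CPM. The 16 cells of the other libraries held 1298 CPM of Il33 (25 UMIs, 840 to 1917), which covers the 1110 CPM over all oligodendrocyte-like cells of those libraries. H2-D1 was at 24.0 (1 UMI) and 65.0 CPM, and Aqp4 at 0 and 26.6 CPM. C4b by library ran from 0 CPM (transgenic female replicate 4) to 183 CPM (transgenic female replicate 1), with 162 CPM in transgenic male replicate 1. These values come from cells of few mice and were not tested.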
